A study of Mus musculus with 6 samples.

Results

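The genes described here are 9 surface markers that change when T cells are activated: Cd44, Cd69, Tfrc, Cd38, Cd5, Cd6, Ly6a, Ly6c2 and Spn. They were taken by gene name from the gene FPKM table, where all 9 were found among 54532 genes. The RNA came from mouse T cells grown together with ID8, a line of mouse ovarian cancer cells. In 3 libraries the ID8 cells had been pretreated with 40 µM cisplatin (cisplatin), and in 3 with PBS (control, whose column names begin with WT). The T cells of both groups came from spleens of C57BL/6 mice aged 6 to 8 weeks, were isolated with a pan T-cell kit, cultured in medium holding IL-2, and stimulated through CD3 and CD28 on beads for 72 h beforehand. No group of T cells alone or of ID8 cells alone was analysed here, ID8 is a single line, and the labels do not say whether replicate libraries came from separate mice or cultures. The p-values below therefore measure the spread between these libraries, which may be technical. FPKM divides the reads of a gene by its length and a library factor, which puts genes and libraries on one scale. Comparisons between these libraries still depend on that factor and on their makeup, as described below.

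A naive T cell that is stimulated through its receptor alters its surface in steps. CD69 appears early and holds the cell in the tissue by pulling the sphingosine-1-phosphate receptor S1PR1 inside. CD71, encoded by Tfrc, follows as the cell starts to grow and needs iron, and CD44, a receptor for hyaluronan, stays high on effector and memory cells. CD5 and CD6 are scavenger-receptor family proteins that tune receptor signalling, CD38 is an enzyme that consumes NAD outside the cell, CD43 (Spn) is a large sialomucin, and Sca-1 (Ly6a) and Ly6C (Ly6c1 and Ly6c2) are small lipid-anchored proteins. Several of these genes are also used outside T cells: CD44 and CD71 by many tumour and dividing cells, CD38 by mouse B cells, and Ly6c2 by monocytes.

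With cisplatin-pretreated ID8 cells, 7 of the 9 markers were higher and 2, Cd44 and Tfrc, were lower. All changes were below 2-fold, from 1.23-fold lower for Tfrc and Cd44 to 59.8% higher for Cd38. By limma on log2(FPKM + 0.1), with Benjamini-Hochberg adjustment over the 15874 genes that averaged 0.5 FPKM or more, all 9 passed an adjusted p of 0.05. This has to be read against the table as a whole, in which 27.5% of the tested genes were higher and 29.0% lower at the same threshold. None of the 9 also reached a fold change of 2, by limma or by limma's voom on reads rebuilt from the FPKM, while 16.9% of all tested genes did (4.11% higher and 12.8% lower). For all 9 the 3 cisplatin libraries lay entirely above or below the 3 control libraries, as they did for 64.2% of the tested genes (31.9% with cisplatin higher, 32.3% with it lower). The median log2 fold change of the 9 was 0.48 and that of all tested genes 0.03.

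The libraries were not made of T-cell RNA alone, and the makeup differed between the groups. Each had 30606569 to 32169496 reads on genes. The summed FPKM of 20 T-cell identity genes ranged from 2592 to 2678 in cisplatin and from 1610 to 1746 in control libraries, and all 20 were higher. The summed FPKM of 30 ID8 tumour-cell markers was 302.9 to 313.8 in cisplatin and 1894 to 1980 in control, 6.34-fold lower. Sums over 13 B-cell markers were 3669 to 3740 in cisplatin and 1722 to 1812 in control, and those over 15 monocyte and macrophage markers 137 to 156 and 70.1 to 74.5. Smaller sums were 396 to 403 against 237 to 247 FPKM for 8 plasma-cell markers, 63.7 to 69.6 against 38.1 to 40.3 for 10 NK-cell markers, and 2.85 to 3.93 against 0.452 to 1.40 for 10 neutrophil markers. They were 24.7 to 25.4 against 32.4 to 33.2 FPKM for 10 endothelial markers, and 4.90 to 6.91 against 5.87 to 10.4 for 8 erythroid markers, which overlapped. Such sums are weighted to the most abundant genes. Of the 4 endothelial markers that could be tested, 3 were lower and 1 higher, with a median log2 fold change of -1.90. T-cell, B-cell and myeloid transcripts were thus higher and ID8 transcripts lower. In such bulk libraries, fewer cells of a type and less RNA in each cell cannot be told apart. For that reason each marker is also given relative to the 20 T-cell identity genes, whose mean log2(FPKM + 0.1) was 6.37 ± 0.0044 in cisplatin and 5.77 ± 0.040 in control (SD, n = 3 each), a difference of 0.61. This second scaling assumes that the identity genes themselves did not change on average. They did not move as one: their log2 fold changes ran from 0.19 to 1.09 as deposited. After the centring they ran from -0.42 to 0.48, and limma called 6 of the 20 higher and 7 lower. A small shift of a marker on this scaling therefore lies within the spread of the identity genes themselves.

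**Figure D1:**
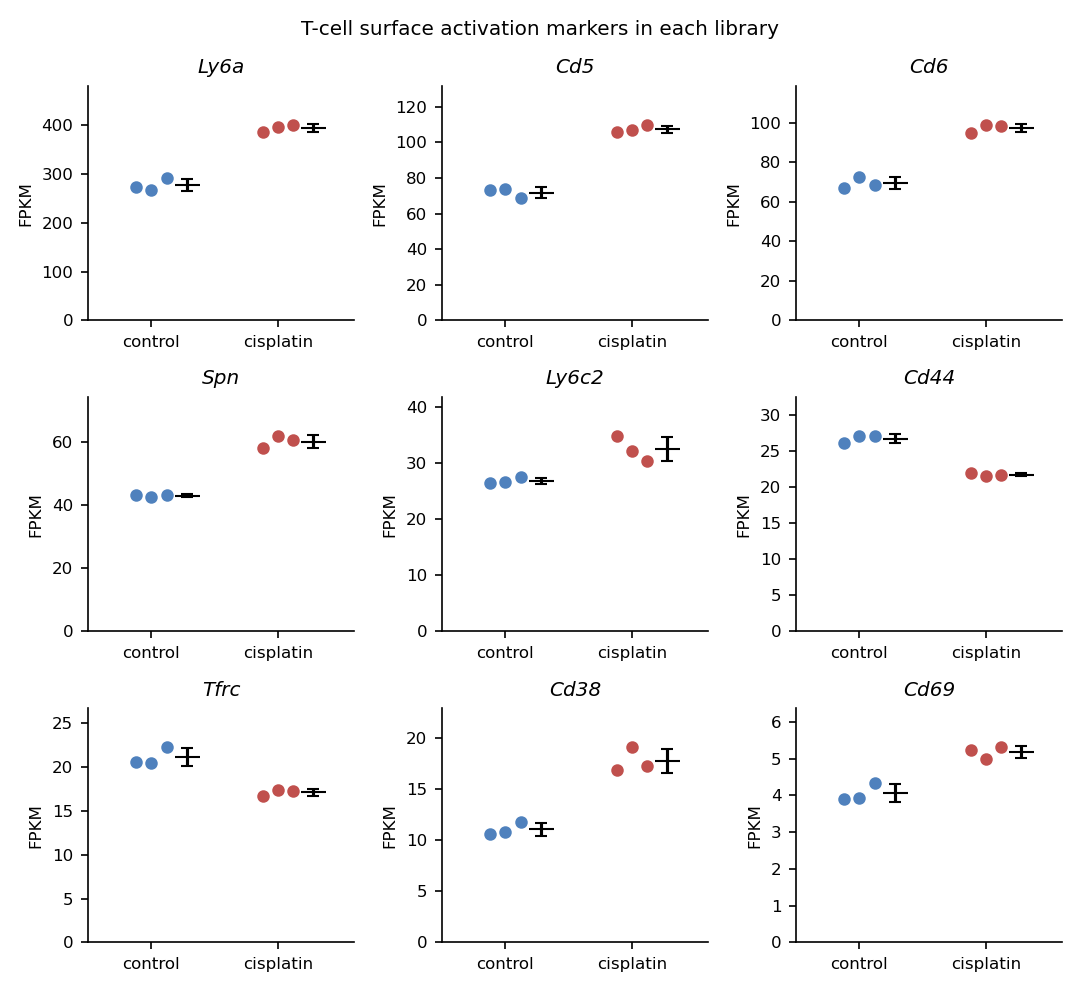
FPKM (vertical axes, from 0) of each of the 9 surface markers in the 3 control (blue) and 3 cisplatin (red) libraries, with the mean and SD of each group in black. The groups are separate in all 9 panels, with Cd44 and Tfrc lower in cisplatin and the other 7 markers higher.

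Cd44 (ENSMUSG00000005087, minus strand of chromosome 2 from 102811141 to 102901665 in GRCm38) was the clearest fall. Its level was 22.0, 21.5 and 21.6 FPKM in the cisplatin libraries and 26.0, 27.0 and 27.0 FPKM in the control libraries. These values rest on 4751 to 4831 and 5295 to 5621 reads. The groups were apart by several times the spread within either, since the SD was 1.04% of the mean in cisplatin and 2.19% in control. Cisplatin minus control came to -0.30 on the log2 scale (SE 0.03, limma adjusted p = 0.000268). Relative to the T-cell identity genes the log2 fold change was -0.90, with a 95% interval from -0.99 to -0.82 (adjusted p = 7.17e-07 from limma). That fit takes the centring as known. A two-sided exact permutation test on the same ratio gave p = 0.1, the lowest value possible with 3 libraries a group. On either scaling Cd44 stood 0.33 below the median log2 fold change of all tested genes, since the second scaling shifts every gene alike. The ID8 markers were lower in the same libraries, and the part of ID8 RNA in the Cd44 values was not tested. A small RNA gene, Gm23731, overlaps Cd44 on the other strand.

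Tfrc (ENSMUSG00000022797, plus strand of chromosome 16 from 32608920 to 32632794), the receptor that takes up transferrin-bound iron, moved by the same amount as Cd44. It had 16.7, 17.4 and 17.2 FPKM in cisplatin and 20.6, 20.4 and 22.3 FPKM in control. The highest cisplatin library stayed below the lowest control library. As deposited, its log2 difference was -0.30 (SE 0.05, limma adjusted p = 0.0014). Relative to the identity genes it was -0.91, with a 95% interval from -1.01 to -0.80. As for Cd44, the ID8 markers were lower in the same libraries, and the part of ID8 RNA in the Tfrc values was not tested. Of the 18 proliferation genes, 10 were higher and 0 lower at an adjusted p under 0.05 by limma, with 8 not passing, but relative to the identity genes 1 was higher and 14 were lower. Among all tested genes 27.5% were higher and 29.0% lower as deposited, and 4.27% and 67.7% relative to the identity genes. As deposited, Mki67, an antigen of cycling cells, rose from 22.8 to 35.2 FPKM. Rrm2, a subunit of the enzyme that makes deoxynucleotides, had the largest rise of the list, from 14.1 to 29.3 FPKM. Log2 fold changes of the list ran from -0.12 to 1.05 as deposited, with a median of 0.23. The median relative to the identity genes was -0.37.

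The promoters of these 2 markers are shown because they were the only ones of the 9 that were lower as deposited. Each stretch runs from 250 bases before to 50 after the annotated start, from RefSeq on GRCm38.p6. The sequence of Cd44 is chr2:102901616-102901915 on the minus strand and that of Tfrc chr16:32608646-32608945 on the plus strand. Capitals mark matches to the 9 motifs searched on both strands.
Cd44: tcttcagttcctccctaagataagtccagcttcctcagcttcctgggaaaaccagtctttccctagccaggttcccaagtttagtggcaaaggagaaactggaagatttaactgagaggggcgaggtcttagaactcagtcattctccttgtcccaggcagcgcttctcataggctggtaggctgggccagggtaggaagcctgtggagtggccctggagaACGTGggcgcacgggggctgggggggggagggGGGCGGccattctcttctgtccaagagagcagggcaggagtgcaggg
Tfrc: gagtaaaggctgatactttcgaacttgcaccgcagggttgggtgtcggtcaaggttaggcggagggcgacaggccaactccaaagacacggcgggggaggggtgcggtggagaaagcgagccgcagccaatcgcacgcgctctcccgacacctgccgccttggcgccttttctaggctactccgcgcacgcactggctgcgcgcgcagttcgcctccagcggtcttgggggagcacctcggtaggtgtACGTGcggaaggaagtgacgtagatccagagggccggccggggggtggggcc
Of the 9 markers, 6 have a promoter sequence in the RefSeq table: Cd44, Tfrc, Cd38, Spn, Ly6c2 and Cd5. The string ACGTG, the core of the hypoxia-response element, begins 29 bases before the start in Cd44 and 2 bases before it in Tfrc. It occurs in 19.7% of 27025 promoters of this length and in none of the other 4 of these markers. Cd44 also holds GGGCGG, the GC box, which 35.9% of promoters hold. The AP-1 motif, searched as TGANTCA, is in 7.93% of promoters and the ETS motif, searched as CCGGAAG, in 9.12%. The E-box, searched as CACGTG, contains the hypoxia string and is in 7.24%. The GAS (TTCNNNGAA, 8.47%), CRE (TGACGTCA, 1.88%), ISRE (3.49%) and NF-κB (4.71%) motifs were searched in the same way. None of these 7 motifs had a match in the 6 windows. A match is a string of letters and was not tested as a site.

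Cd69 (ENSMUSG00000030156, minus strand of chromosome 6 from 129267325 to 129275436), the early activation marker, had the lowest level of the set. It had 5.23, 4.99 and 5.31 FPKM in cisplatin and 3.91, 3.92 and 4.34 FPKM in control. The groups did not overlap, although control 3 came closer to cisplatin than the other control libraries. That is a rise of 0.35 on the log2 scale (SE 0.07, limma adjusted p = 0.00484). Relative to the identity genes it was -0.26 (95% interval from -0.42 to -0.10, adjusted p = 0.0111 from limma). As deposited, S1pr1, the receptor that CD69 removes from the surface, rose from 40.2 to 65.6 FPKM (log2 fold change 0.71). Klf2, the factor that switches S1pr1 on in resting cells, rose from 44.9 to 56.5 FPKM (log2 fold change 0.33). Both are among 9 listed egress genes, of which 0 were higher and 7 lower relative to the identity genes. The largest log2 fold change of that list on that scaling was 0.10.

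Cd38 (ENSMUSG00000029084, plus strand of chromosome 5 from 43868553 to 43912375) rose the most. It had 16.8, 19.1 and 17.3 FPKM in cisplatin and 10.6, 10.8 and 11.7 FPKM in control. All 3 cisplatin libraries lay above all 3 control libraries, with a spread of 6.80% and 5.55% of the mean, among the widest of the set. Its log2 rise was 0.68 (SE 0.06, limma adjusted p = 0.00015). Relative to the identity genes it was 0.07, with a 95% interval from -0.07 to 0.21 (adjusted p = 0.328 from limma). The B-cell markers rose alongside, from a summed 1722 to 1812 FPKM in control to 3669 to 3740 FPKM in cisplatin. Of these 13 markers 11 were higher and 1 lower, with a median log2 fold change of 0.53. Relative to the identity genes 4 were higher and 4 lower, with a median of -0.07. Their part in the Cd38 values was not tested. The sense-intronic Gm16014 and the antisense Gm16015 overlap Cd38, and the sources used here do not say whether counting used strand, so some of its reads could belong to either.

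Cd5 and Cd6, which lie in the same orientation on chromosome 19 with 50366 bases between them, rose side by side. Cd5 (ENSMUSG00000024669, from 10718143 to 10738974) had 105.8, 106.7 and 109.6 FPKM in cisplatin and 73.1, 73.8 and 68.5 FPKM in control. Cd6 (ENSMUSG00000024670, from 10789341 to 10830058) had 94.97, 98.9 and 98.5 FPKM in cisplatin and 67.2, 72.8 and 68.5 FPKM in control. Neither gene's groups overlapped. On the log2 scale Cd5 rose by 0.58 (SE 0.04, limma adjusted p = 2.17e-05) and Cd6 by 0.49 (SE 0.04, limma adjusted p = 6.28e-05). Relative to the identity genes Cd5 was at -0.03 (95% interval from -0.14 to 0.09, adjusted p = 0.656 from limma) and Cd6 at -0.12 (95% interval from -0.21 to -0.03, adjusted p = 0.0261 from limma). Cd5 and Cd38 were the 2 markers whose interval on that scaling included 0.

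Spn (ENSMUSG00000051457, minus strand of chromosome 7 from 127132232 to 127137823) had 58.1, 61.9 and 60.5 FPKM in cisplatin and 43.3, 42.4 and 43.3 FPKM in control. The control libraries lay within 1.16% (SD) of their mean, the tightest control group of the set. Spn rose by 0.48 on the log2 scale (SE 0.03, limma adjusted p = 2.95e-05), and was at -0.12 relative to the identity genes (adjusted p = 0.0258 from limma). Of 13 tested Spn partners and glycosylation genes of 16, 7 were lower and 3 higher by limma, or 9 and 0 relative to the identity genes. The shares lower among all tested genes were 29.0% as deposited and 67.7% relative to the identity genes. Gcnt1, which starts the core-2 branch, fell from 7.58 to 3.63 FPKM, and St3gal1, which caps core-1 chains with sialic acid, from 26.5 to 13.2 FPKM. Here too ID8 markers fell in the same libraries, and the part of ID8 RNA in the values of these partner genes was not tested.

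Ly6a (ENSMUSG00000075602, minus strand of chromosome 15 from 74994877 to 74998031) was the most abundant of the 9. It had 385.5, 396.8 and 400.6 FPKM in cisplatin and 273.7, 267.5 and 292.0 FPKM in control. Every cisplatin library exceeded every control library by more than the range within either group. It rose by 0.51 on the log2 scale (SE 0.04, limma adjusted p = 6.51e-05), and was at -0.10 relative to the identity genes (adjusted p = 0.048 from limma). Ly6a is known to be interferon-inducible. Among 24 interferon-stimulated genes, limma called 20 lower and 2 higher (24 and 0 relative to the identity genes), with a median log2 fold change of -0.95. The shares lower among all tested genes were 29.0% and 67.7% on the 2 scalings. Oasl2 fell from 79.7 to 11.0 FPKM and Ifit3 from 115 to 24.4 FPKM. ID8 markers fell in the same libraries, and the part of ID8 RNA in the values of these interferon-stimulated genes was not tested.

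Ly6c2 (ENSMUSG00000022584, minus strand of chromosome 15 from 75108158 to 75111970) had 34.8, 32.2 and 30.5 FPKM in cisplatin and 26.4, 26.7 and 27.5 FPKM in control. The cisplatin libraries were spread by 6.78% of their mean and the control libraries by 2.16%. It rose by 0.27 on the log2 scale (SE 0.05, limma adjusted p = 0.00454), the smallest rise of the set, and was at -0.33 relative to the identity genes (adjusted p = 0.00116 from limma). Its neighbour Ly6c1 moved the opposite way, from 36.8 to 22.9 FPKM (log2 fold change -0.69). Monocyte and macrophage markers summed to 137 to 156 FPKM in cisplatin and 70.1 to 74.5 FPKM in control, and their part in the Ly6c2 values was not tested. The 10 neutrophil markers summed to 2.85 to 3.93 FPKM in cisplatin and 0.452 to 1.40 FPKM in control, and the 2 that could be tested were both higher. Their part was not tested either.

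The first 260 bases of the coding sequences of Ly6c2 and Ly6c1 are shown because they bear on how well reads can be assigned to either gene. They come from GENCODE M21 transcripts on GRCm38, whose coding parts span chr15:75108546-75111667 for Ly6c2 and chr15:75045405-75048511 for Ly6c1, both on the minus strand and in 3 coding exons. Capitals mark the bases at which they differ.
Ly6c2: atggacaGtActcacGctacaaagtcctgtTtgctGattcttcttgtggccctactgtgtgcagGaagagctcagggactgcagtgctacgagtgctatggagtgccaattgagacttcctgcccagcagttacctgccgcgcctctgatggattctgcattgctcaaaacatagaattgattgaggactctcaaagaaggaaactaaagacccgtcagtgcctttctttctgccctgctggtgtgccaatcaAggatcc
Ly6c1: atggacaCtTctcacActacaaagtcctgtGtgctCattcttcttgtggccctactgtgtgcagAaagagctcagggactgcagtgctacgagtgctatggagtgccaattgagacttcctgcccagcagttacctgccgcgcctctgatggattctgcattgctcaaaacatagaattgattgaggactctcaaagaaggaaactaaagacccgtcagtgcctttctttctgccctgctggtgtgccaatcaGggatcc
Of the 9 differences between the full coding sequences, 7 lie in this stretch. Both are 396 bases long, and 387 bases (97.7%) are the same. The longest stretch without a difference is 188 bases, so a read inside it carries no base of the coding sequence that tells the genes apart. How reads matching both genes were treated is not given in the sources used here, and the values of both genes are uncertain for that reason.

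Upstream the pair is less alike. The stretches from 250 bases before to 50 after the start (RefSeq, GRCm38.p6) are chr15:75111922-75112221 for Ly6c2 and chr15:75048788-75049087 for Ly6c1, on the minus strand, and are shown because the genes moved in opposite directions. Capitals mark bases that differ or have no partner in the alignment.
Ly6c2: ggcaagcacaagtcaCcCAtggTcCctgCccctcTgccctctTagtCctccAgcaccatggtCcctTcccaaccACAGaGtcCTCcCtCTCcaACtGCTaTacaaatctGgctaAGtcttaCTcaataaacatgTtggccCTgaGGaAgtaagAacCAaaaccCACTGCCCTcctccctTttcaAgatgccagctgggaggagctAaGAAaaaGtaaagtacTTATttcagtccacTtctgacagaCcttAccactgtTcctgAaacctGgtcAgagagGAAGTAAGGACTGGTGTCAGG
Ly6c1: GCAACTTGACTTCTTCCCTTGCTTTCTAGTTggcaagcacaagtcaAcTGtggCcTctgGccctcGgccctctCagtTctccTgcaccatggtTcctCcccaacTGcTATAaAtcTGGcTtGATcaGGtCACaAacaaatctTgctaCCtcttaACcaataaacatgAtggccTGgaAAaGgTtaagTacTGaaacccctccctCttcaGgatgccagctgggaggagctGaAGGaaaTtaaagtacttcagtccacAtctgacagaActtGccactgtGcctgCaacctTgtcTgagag
Over the 282 aligned columns 208 bases (73.8%) were identical, and none of the 9 motifs matched either window.

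A ratio within a library does not depend on how libraries were scaled. The ratio of Ly6c2 to Ly6c1 FPKM was 1.46, 1.42 and 1.38 in cisplatin and 0.741, 0.744 and 0.705 in control. By FPKM, Ly6c2 was thus the higher of the pair with cisplatin and Ly6c1 in control. The log2 ratio differed by 0.96 (two-sided exact permutation test, p = 0.1, the lowest value possible with 3 libraries a group). Added together, the reads on both genes were 4383, 4189 and 3903 in cisplatin and 3967, 3996 and 4323 in control, and these sums overlapped. Ly6c2 took 69.3% to 70.5% of them in cisplatin and 53.5% to 54.9% in control. By reads, which are not divided by gene length, Ly6c2 was thus the higher in both groups.

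**Figure D2:**
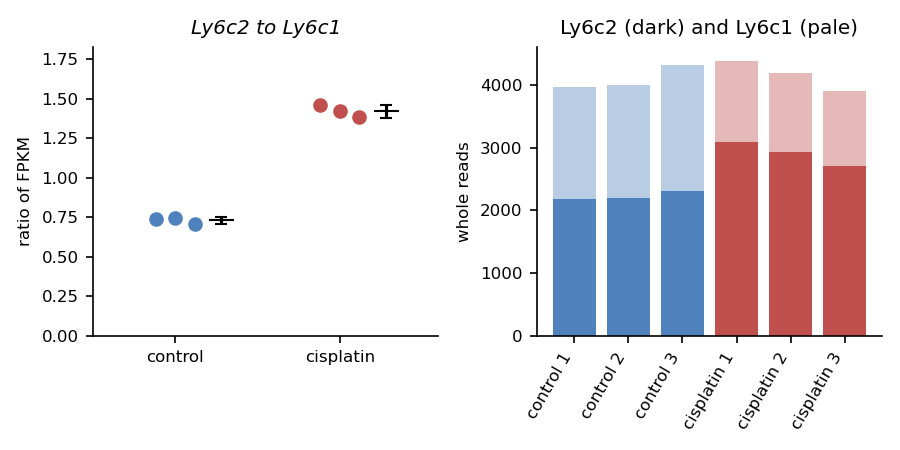
Ratio of FPKM of Ly6c2 to Ly6c1 (left) in each control (blue) and cisplatin (red) library with group mean and SD, and whole reads on Ly6c2 (dark) and Ly6c1 (pale) in each library (right). The Ly6c2 to Ly6c1 ratio rises from 0.730 to 1.42 on average, while the summed Ly6c reads overlap between the groups.

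Ordered by level, the set ran from Ly6a through Cd5, Cd6, Spn, Ly6c2, Cd44, Tfrc and Cd38 to Cd69 by mean FPKM over the 6 libraries. Ly6a was 3.67 times Cd5 in cisplatin and 3.87 times in control. Some neighbours in this order were not apart beyond their spread: Cd5 and Cd6 overlapped in control, Ly6c2 and Cd44 in control, and Tfrc and Cd38 in cisplatin. Ly6c2 and Cd44 had 26.9 ± 0.580 and 26.7 ± 0.584 FPKM in control (SD, n = 3 each), and did not overlap in cisplatin, where Ly6c2 was 1.499 times Cd44. Tfrc was 1.91 times Cd38 in control.

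Among the tested genes of at least 5 FPKM, those whose 6 library values ran most like those of Cd44 were E330009J07Rik, Xpo1, a nuclear export receptor, and Hspa5, a chaperone of the endoplasmic reticulum. Their log2 values, each centred on its own mean, differed from those of Cd44 by a root mean square of 0.0173, 0.0179 and 0.0192 over the 6 libraries, out of 8421 genes compared. Their log2 fold changes were -0.28, -0.29 and -0.29.

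The scaling decides the direction of most of the set. As deposited, 7 markers were higher and 2 lower. Relative to the T-cell identity genes, 7 were lower by limma (Cd44, Tfrc, Ly6c2, Cd69, Spn, Cd6 and Ly6a), 0 were higher at an adjusted or an unadjusted p under 0.05, and Cd5 and Cd38 did not pass. On that scaling 67.7% of all tested genes were lower and 4.27% higher, and the median of all tested genes was -0.58. The second scaling lowers every gene by 0.61 on the log2 scale. A gene lower as deposited, such as Cd44 or Tfrc, must therefore be lower on it too. Relative to the identity genes Cd44 and Tfrc fell by 0.90 and 0.91, where the other 7 markers lay between -0.33 and 0.07. How much of the Cd44 and Tfrc RNA came from ID8 cells was not tested, so these values are not levels per T cell.

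**Figure D3:**
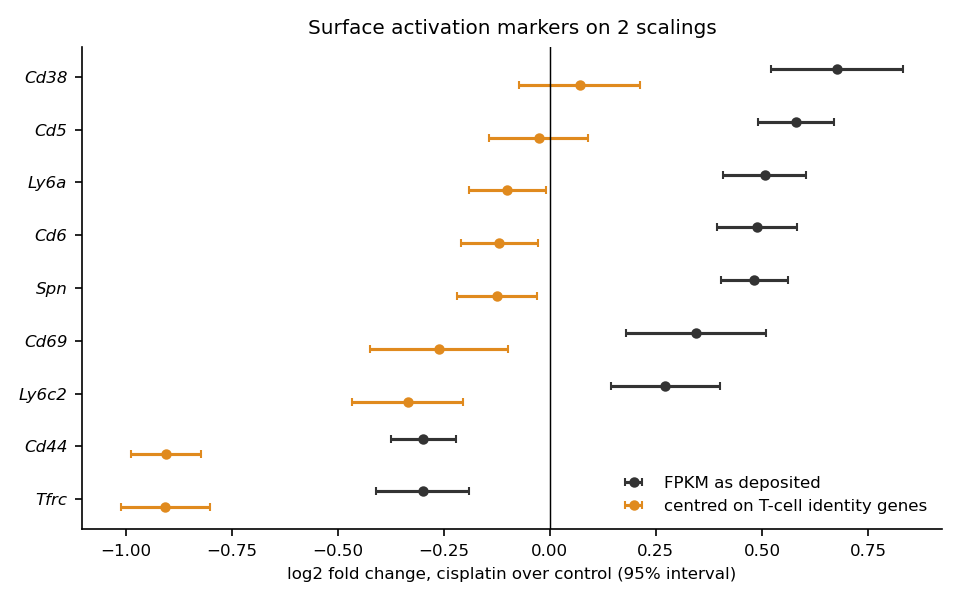
Log2 fold change of cisplatin over control (horizontal axis) for each surface marker, with 95% intervals from limma over 3 libraries a group, on the FPKM as deposited (dark) and after each library was centred on 20 T-cell identity genes (orange). Cd44 and Tfrc are below 0 on both, and the other markers move from above 0 to between -0.33 and 0.07. The centring lowers every gene alike, and the part of ID8 RNA in the values was not tested.

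Other surface genes of activated T cells were compared with the set. Of 45 such genes, all tested, 35 were higher, 5 lower and 5 did not pass at an adjusted p under 0.05 by limma, with a median log2 fold change of 0.47. Among all tested genes 27.5% were higher and 29.0% lower, with a median of 0.03. The largest rises were those of Cxcr3, a chemokine receptor of effector T cells (28.6 to 57.5 FPKM, log2 fold change 1.003), Klrg1, an inhibitory lectin of differentiated cells (0.719 to 1.54 FPKM, 0.99 on the same scale), and Slc7a5, an amino acid transporter subunit (14.7 to 27.3 FPKM, a log2 fold change of 0.89). Il2ra, the alpha chain of the IL-2 receptor, rose from 15.4 to 23.6 FPKM. The largest fall was that of Itgb1, an integrin chain present on most adherent cells (77.6 to 36.7 FPKM, log2 fold change -1.08). Tnfrsf1b, a TNF receptor, fell from 46.0 to 37.9 FPKM and Tnfrsf9, the costimulatory receptor 4-1BB, from 22.0 to 19.1 FPKM. Relative to the identity genes, 6 of the 45 were higher and 20 lower, beside 4.27% and 67.7% of all tested genes.
Surface genes of resting and recirculating T cells, listed together with the factor Klf2, moved in a like range. Of 13, 11 were higher and 2 lower, with a median log2 fold change of 0.47. Cd24a, a small anchored glycoprotein, rose from 15.7 to 27.7 FPKM, Slamf6, a co-receptor of less differentiated T cells, from 8.02 to 14.0 FPKM and Ccr7, the lymph node homing receptor, from 169 to 242 FPKM. Cd55, which limits complement, fell from 23.9 to 7.66 FPKM, and Il6st, a shared cytokine receptor chain, from 23.0 to 17.2 FPKM. Relative to the identity genes 3 were higher and 7 lower. The shares of all tested genes were 27.5% higher and 29.0% lower as deposited, and 4.27% and 67.7% on the second scaling.

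Over all tested genes 29.0% were lower as deposited and 67.7% relative to the identity genes, and the counts of partner genes that follow are to be read beside these shares. The ID8 markers fell in the same libraries (24 of 26 tested, median log2 fold change -2.32), and their part in the partner genes' values was not tested. Among 17 tested of 24 genes for CD44 ligands, hyaluronan enzymes, sheddases and linkers, 10 were lower, 3 higher and 4 did not pass, with a median log2 fold change of -0.49, and relative to the identity genes 14 were lower and 1 higher. Spp1, which encodes the CD44 ligand osteopontin, fell from 293 to 104 FPKM (log2 fold change -1.49), and Mif, a cytokine that signals through CD74 and CD44, from 521 to 198 FPKM. Adam10, a protease that sheds CD44, fell from 73.3 to 37.3 FPKM, and Esrp2, an epithelial splicing factor, from 2.57 to 0.424 FPKM. Cd74 rose from 505 to 832 FPKM and Srgn, the proteoglycan of secretory granules, from 87.0 to 128 FPKM. Of 13 tested iron genes of 14, 10 were lower and 1 higher, with a median log2 fold change of -0.44, and relative to the identity genes all 13 were lower. Trf, which encodes transferrin, fell from 1.65 to 0.222 FPKM, Hmox1, which frees iron from haem, from 102 to 30.4 FPKM, and Ncoa4, which delivers ferritin for breakdown, from 15.2 to 6.93 FPKM. Ftl1, the ferritin light chain, fell from 243 to 191 FPKM, while Fth1, the heavy chain, was at 1117 FPKM in control and 1059 FPKM in cisplatin and did not pass. Slc25a37, the mitochondrial iron importer, was the 1 that rose (9.66 to 12.7 FPKM).

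Of 9 genes for sphingosine-1-phosphate signalling and egress, 5 were higher and 3 lower (0 and 7 relative to the identity genes). S1pr5 fell from 1.36 to 0.167 FPKM and Spns2, the exporter of the lipid, from 9.72 to 2.64 FPKM. Of 14 tested genes of 16 for CD38 partners and NAD metabolism, 5 were higher and 5 lower (1 and 10 on the second scaling). Pecam1, whose product CD31 binds CD38, rose from 13.4 to 20.6 FPKM, and Nampt, which makes NAD from nicotinamide, fell from 37.0 to 22.5 FPKM. Of 13 tested genes of 14 for CD5 and CD6 ligands and adaptors, 7 were higher and 2 lower (2 and 9 on the second scaling). Ptpn6, which encodes the phosphatase SHP-1, rose from 43.8 to 89.9 FPKM (log2 fold change 1.04), and Alcam, the CD6 ligand, was lower at 7.68 against 8.50 FPKM (log2 fold change -0.14). Of 27 further genes of the Ly6 family 9 were expressed enough to be tested, and 3 were higher (Ly6e, Ly6i and Ly6d), 1 was lower (Ly6c1) and 5 did not pass (1 higher and 3 lower on the second scaling). Ly6e, an interferon-inducible member, rose from 135 to 235 FPKM.

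**Figure D4:**
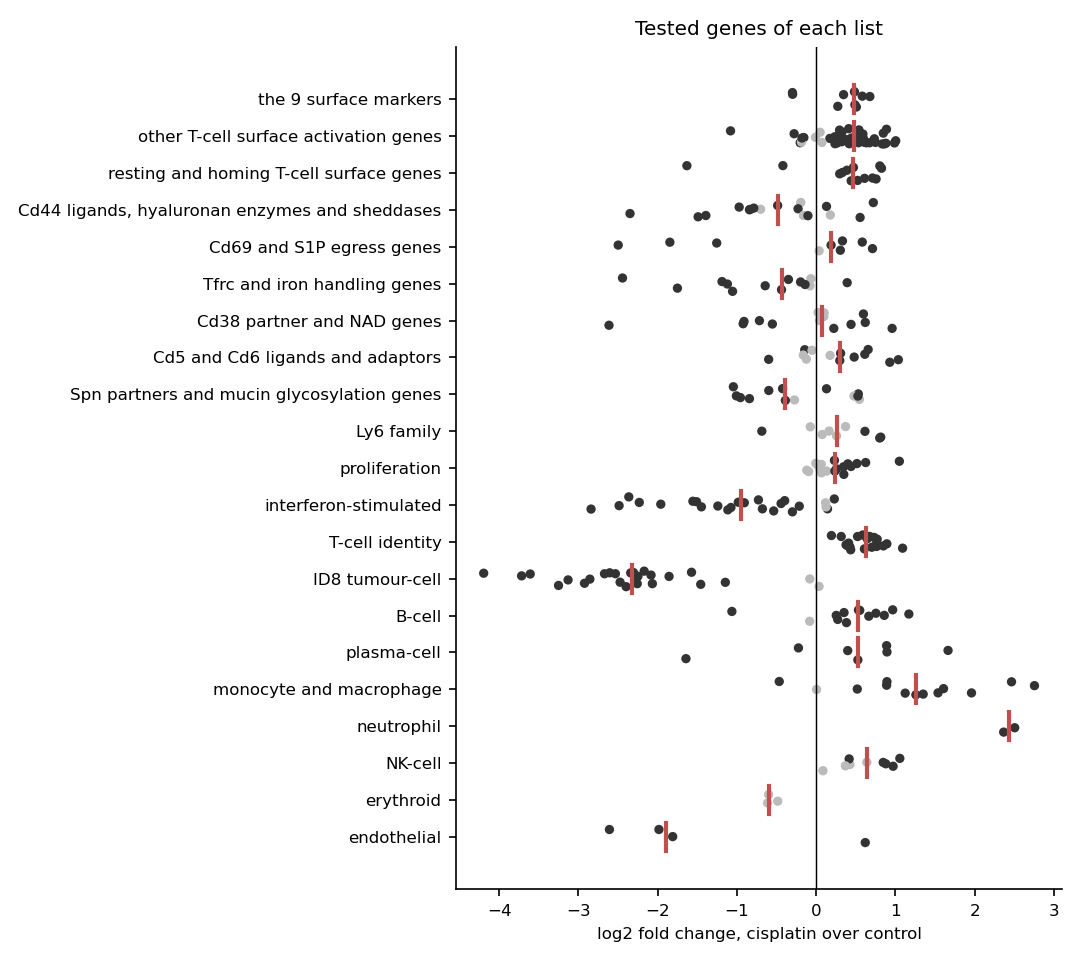
Log2 fold change of cisplatin over control (horizontal axis) of each tested gene in the 9 surface markers, the related gene lists and the marker lists of cell types. Each point is a gene (dark, adjusted p under 0.05 by limma; pale, not), with vertical scatter only for legibility, and red bars are medians, which were 0.48 for the surface markers, 0.63 for T-cell identity genes, -2.32 for ID8 markers and 2.43 for the 2 tested neutrophil markers.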

How the data were processed

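Poly-A RNA of 6 co-culture libraries (3 cisplatin, 3 control) was analysed from a table of FPKM values that the authors deposited, counts per gene divided by gene length and a library factor. The paper names LifeScope v2.5.1 for alignment and counting, whereas the submitters' processing notes name fastp, HISAT2 2.0.5, featureCounts 1.5.0-p3 and mm10 (GRCm38). The gene length, among other columns of the deposited table, was used as the authors gave it. The authors' own comparison used DESeq2 and is not used here. Whole reads were rebuilt from FPKM and length (100% of values above 0 within 0.1 of a whole read) and gave 30606569 to 32169496 reads on genes per library. The authors' library factor was 1.03 to 1.05 times these reads in cisplatin and 0.976 to 0.982 times in control.

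Groups came from the sample titles. The fit was limma 3.58.1 (R 4.3.3; lmFit, eBayes with trend) on log2(FPKM + 0.1) over genes that averaged 0.5 FPKM or more, a scale that understates changes of low genes, with Benjamini-Hochberg adjustment over 15874 genes. Ratios were compared by two-sided exact permutation tests with scipy 1.17.1. No replicate libraries were identical, and all pairs varied beyond counting error (chi-square per degree of freedom 5.35 to 6.44). The fit was tested on simulated data, where 80.3% of 66 genes changed by 0.5 and 100% of 67 changed by 1 on the log2 scale were recovered among 15880 tested, with 7 unchanged genes called. The simulation changed few genes, both up and down, at a fixed dispersion and with no difference in makeup between the groups. It therefore cannot speak for calls made under such a difference.

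The markers and lists were chosen with earlier results of these data known. Named genes are the 9 markers, the genes of the related lists (chiefly the 3 largest rises and falls that passed) and the 3 genes most like Cd44. Of 353 list entries 4 were matched by an older symbol. Alternatives were other pseudocounts (1, 0.01), filters, scalings, thresholds, no variance trend, voom on rebuilt reads, each library left out, and a block for the replicate number. The table held 0 unused sample columns. A planned ratio of Cd44 to a gene outside the set is not reported here.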

Additional observations from a re-analysis of the deposited data

How the results depend on the processing

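Limma called 7 surface markers higher and 2 lower at an adjusted p under 0.05 under all alternatives other than 3, namely the centring, the fold-change limit and the higher minimum described here. With libraries centred on the identity genes, limma called 0 higher and 7 lower, and the sign reversed for Cd5 (-0.026), Cd6 (-0.12), Cd69 (-0.26), Ly6a (-0.10), Ly6c2 (-0.33) and Spn (-0.12 on the log2 scale), with Cd38 at 0.07 (adjusted p = 0.328 from limma). This follows from its construction, which lowers every gene by 0.61. Over libraries left out in turn, the log2 ratio of Cd5 to the identity genes ran from -0.0756 (without control 3) to 0.00974 (without control 1), so its sign rests on single libraries. Requiring at least 2-fold left 0 higher and 0 lower. Cd44 ranged from -0.90 to -0.21 and Tfrc from -0.91 to -0.21 in log2 fold change over 18 alternatives. Without single libraries the counts stayed at 7 and 2. Over the related lists, the 81 genes higher and 64 lower became 15 and 127 after the centring. With a minimum mean of 5 FPKM, Cd69 was not tested, since it lies below it, and 6 were higher and 2 lower. The FPKM rescaled by reads on genes, chosen after seeing the data, moved the median of all genes from 0.03 to 0.11 and changed no call of the 9.

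The replicate number as a block gave 7 higher and 2 lower. Same-numbered libraries did not deviate together (correlations 0.0229, -0.063 and -0.0207). The labels give no pairing, and with 3 libraries a group these correlations cannot exclude one. Depth did not limit these genes, with at least 764 reads on each marker in each library.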
